A study of Rattus norvegicus with 10 samples.

Results

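The axon guidance ligands and receptors were measured as 52 genes of the 14324 with a gene name of their own on the array. They were chosen by symbol: semaphorins (Sema), plexins (Plxn), ephrin-A and ephrin-B ligands (Efna, Efnb), EphA and EphB receptors (Epha, Ephb), Slits, Robo receptors, netrins with netrin-Gs (Ntn, Ntng) and Unc5 receptors, leaving out Robo4 and the Slitrk genes. Where a gene had more than 1 probe set, the brightest over the 10 arrays stood for it. That choice touched only Sema4c, which had 2 of the 53 probe sets. The 52 genes comprised 30 ligands and 22 receptors: 16 semaphorins, 5 plexins, 4 ephrin-As, 3 ephrin-Bs, 7 EphA and 4 EphB receptors, 2 Slits, 3 Robos, 5 netrins or netrin-Gs and 3 Unc5 receptors.

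The arrays came from a study of the early phase of oxygen-induced retinopathy, a rodent model of the vessel disease of premature infants. Newborn albino rats of the Fischer 344 (F344) and Sprague Dawley (SD) strains were kept with their dams, from within 12 h of birth, in cyclic hyperoxia, with 24 h at 80% oxygen alternating with 24 h at 21%. Controls of each strain stayed in room air. F344 is known as a strain resistant to this retinopathy and SD as a susceptible strain. Every pool held RNA from the retinas of 3 rats of 2 litters at postnatal day 3. There were 2 pools from F344 in room air, 3 from F344 in hyperoxia, 3 from SD in room air and 2 from SD in hyperoxia, with 1 array per pool. By the design text, a principal component analysis of 8 initial samples led to 1 more sample each for F344 in hyperoxia and SD in room air. That the pools numbered 3 are those samples is an inference from the numbering. In RNA from whole retina, fewer cells of a type and less RNA per cell cannot be told apart.

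Guidance molecules tell growing axons, migrating cells and sprouting vessels where to go. Semaphorins signal through plexins, in class 3 mostly with neuropilin as the binding subunit. Ephrins bind Eph receptor tyrosine kinases on neighbouring cells, and signals can pass in both directions. Slits repel through Robo receptors. Netrin-1 attracts through Dcc and repels through Unc5 receptors, while the netrin-Gs are membrane-anchored and bind other partners. In the retina, graded ephrins and Ephs map ganglion cell axons onto their targets. Sema3e with Plxnd1, ephrin-B2 with EphB4, and Unc5b are known from growing vessels.

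Values are deposited log2 intensities with 1 decimal, so a difference of 1 is a doubling. Array medians lay between 5.9 and 6. Of the 52 genes, 38 lay above the median of the array on all 10 arrays and 11 lay below it on all of them. The 11 dim genes were Epha1, Epha10, Ntn1, Ntn5, Plxnb3, Sema3b, Sema3c, Sema3d, Sema4f, Slit3 and Unc5b. The within-group SD of the genes ran from 0.0553 to 0.314, with a median of 0.15. The tissue label was checked with cell type markers: 16 of 16 markers of progenitors and Mueller glia, 15 of 16 of photoreceptors and 14 of 16 of ganglion cells lay above the array median on all arrays. The same held for 2 of 17 endothelial, 1 of 12 microglial and 0 of 8 lens markers. Differences were tested with limma over all 27342 probe sets, with Benjamini-Hochberg adjustment, and "passed" means an adjusted p under 0.05. Each p-value sets a difference against the variation between pools, shared over the 4 groups. Variation between single rats within a pool was not measured.

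**Figure D1:**
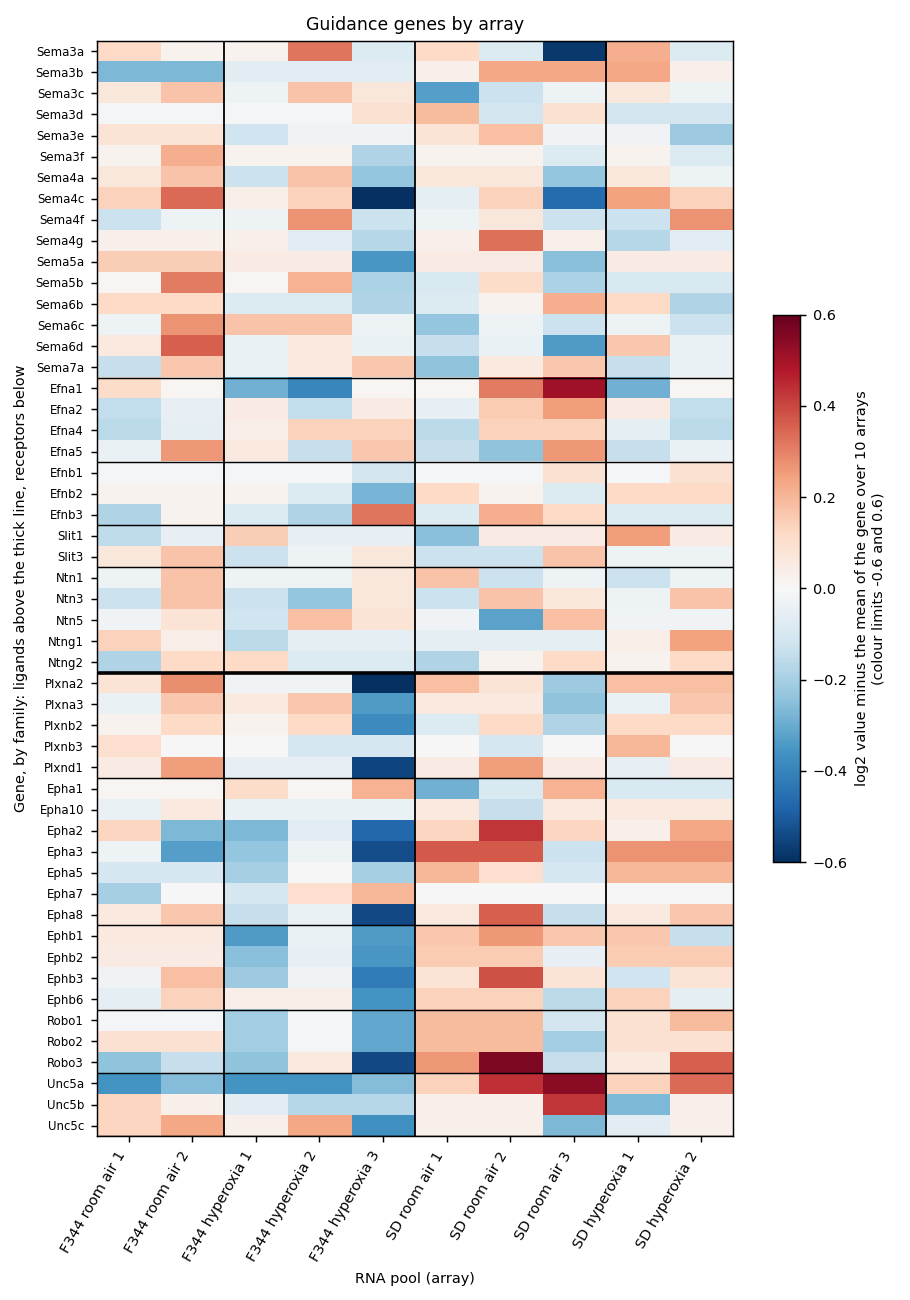
Log2 value of each of the 52 guidance genes (rows, by family, ligands above the thick line) in each of the 10 pools (columns), minus the mean of that gene over all arrays; colours end at -0.6 and 0.6. Unc5a is low in all 5 F344 columns and high in all 5 SD columns, and the column of F344 hyperoxia pool 3 is low for many receptors.

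Upstream sequence was looked at because cyclic oxygen bears on hypoxia-inducible factor, whose known DNA core is ACGTG or GCGTG. The 250 bases before the RefSeq gene start (rat assembly GRCr8, a reference of the Brown Norway strain) were found for 43 of the 52 genes. On either strand, 21 of them (48.8%) held at least 1 core, against 37.9% of 27457 genes. Those 27457 are all genes with such a sequence, not limited to genes on the array and not matched for base content. The 2 shares are therefore not of like sets. A palindromic CACGTG counts as 2 overlapping matches, 1 on each strand. Epha8 had 5 matches and Plxnd1 had 4, the most among the genes found. Unc5a and Efna1 had 0 in this window. Plxna2 had 1. These 5 are shown because Unc5a carries the strain difference, Efna1 the smallest p for hyperoxia in SD, and Plxna2, Plxnd1 and Epha8 the 3 lowest receptor differences in F344 hyperoxia. Plxna2 is on the plus strand and the others on the minus strand, all written 5′ to 3′, with matches on either strand in capitals. They lie at chr17:9675664-9675913 (Unc5a), chr2:176986822-176987071 (Efna1), chr13:108691280-108691529 (Plxna2), chr4:150715188-150715437 (Plxnd1) and chr5:154476967-154477216 (Epha8).
Unc5a: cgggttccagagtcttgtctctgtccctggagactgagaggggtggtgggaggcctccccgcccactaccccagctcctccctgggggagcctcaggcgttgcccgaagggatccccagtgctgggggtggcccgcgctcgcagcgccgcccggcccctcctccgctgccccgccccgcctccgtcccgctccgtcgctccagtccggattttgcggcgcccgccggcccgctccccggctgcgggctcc
Efna1: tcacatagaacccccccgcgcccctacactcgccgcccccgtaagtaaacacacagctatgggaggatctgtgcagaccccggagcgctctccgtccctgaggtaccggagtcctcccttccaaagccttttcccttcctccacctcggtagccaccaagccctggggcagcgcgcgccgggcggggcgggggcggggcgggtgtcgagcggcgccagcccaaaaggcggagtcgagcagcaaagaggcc
Plxna2: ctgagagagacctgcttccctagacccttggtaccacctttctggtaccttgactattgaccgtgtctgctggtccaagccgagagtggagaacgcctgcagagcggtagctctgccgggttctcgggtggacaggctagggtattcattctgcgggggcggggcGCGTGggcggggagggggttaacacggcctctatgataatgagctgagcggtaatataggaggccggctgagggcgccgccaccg
Plxnd1: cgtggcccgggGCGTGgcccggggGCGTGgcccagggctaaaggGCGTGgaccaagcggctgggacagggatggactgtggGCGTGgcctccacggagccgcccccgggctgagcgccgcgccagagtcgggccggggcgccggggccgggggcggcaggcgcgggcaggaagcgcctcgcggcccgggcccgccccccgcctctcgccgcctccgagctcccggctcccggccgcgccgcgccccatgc
Epha8: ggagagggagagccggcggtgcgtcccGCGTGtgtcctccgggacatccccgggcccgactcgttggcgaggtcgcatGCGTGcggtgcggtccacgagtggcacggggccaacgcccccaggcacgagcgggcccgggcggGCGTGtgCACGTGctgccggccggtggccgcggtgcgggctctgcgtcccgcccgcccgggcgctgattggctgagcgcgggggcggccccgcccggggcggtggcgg
A match describes letters only, and no binding was measured.

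Cyclic hyperoxia in SD was asked of 2 exposed against 3 room-air pools. None of the 52 genes passed, against 0.0489% of all named genes (7 genes, all lower). At an unadjusted p under 0.05 there was 1 guidance gene, Efna1, and 4.68% of all genes. Of the 52, 22 lay below 0, 27 above and 3 at 0, with a median log2 difference of 0.02, and 46% of all genes lay below 0. The exposure was visible in the same arrays elsewhere: of 26 known targets of hypoxia-inducible factor, 24 lay below 0 and 5 passed as lower, with a median of -0.725. No guidance gene was among the 7 that passed.

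Among the ligands, the 4 ephrin-As all lay below 0 in SD, led by Efna1, a ligand of EphA2 known from vessels. Efna1 stood at 5.6, 5.9 and 6.1 in SD room air and at 5.3 and 5.6 in SD hyperoxia. In F344 it stood at 5.7 and 5.6 in room air and at 5.3, 5.2 and 5.6 in hyperoxia. The groups touched at 5.6 in each strain. The log2 difference was -0.42 in SD (SE 0.163, 95% interval -0.77 to -0.06, adjusted p = 0.815) and -0.28 in F344 (SE 0.163, adjusted p = 0.921). Averaged over both strains it was -0.35 (SE 0.115, adjusted p = 0.99), the smallest p of the 52. SD room-air pool 3 held the highest value, and with a term for the pools numbered 3 the SD difference was -0.30 and the F344 difference -0.40. Efna4, whose gene lies next but 1 to Efna1 on chromosome 2, did not share the pattern: it stood at 6, 6.3 and 6.3 in SD room air and 6.1 and 6 in SD hyperoxia, a difference of -0.15, but at 6 and 6.1 in F344 room air and 6.2, 6.3 and 6.3 in F344 hyperoxia, a difference of 0.22. Efna2 and Efna5, ligands of the retinal axon map, lay at -0.17 and -0.05 in SD and at 0.08 and -0.08 in F344.

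Ephrin-Bs, which signal in both directions at cell contacts, ranged from -0.17 to 0.10 in SD. Efnb1 differed by 0.02 (SE 0.0988) and by -0.03 in F344. Efnb2, a marker of arterial endothelium also made by dorsal retina, stood at 9.5, 9.4 and 9.3 in SD room air and 9.5 and 9.5 in hyperoxia. Efnb3 lay at -0.17 in SD and 0.10 in F344.

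Among the semaphorins, 8 of 16 lay below 0 in SD. The class 4 member Sema4g stood at 7.1, 7.4 and 7.1 in room air and 6.9 and 7 in hyperoxia, the only guidance gene with all exposed SD pools below all controls (7.34% of all genes did so). Its difference was -0.25 (SE 0.12, adjusted p = 0.815). Sema3e, the ligand of Plxnd1, stood at 8.2, 8.3 and 8.1 in room air and 8.1 and 7.9 in hyperoxia, so the groups touched. Its difference was -0.20 in SD and -0.13 in F344. Sema3a, a repellent made by retinal neurons, lay at 0.25 (SE 0.189) in SD, where its room-air pools were 7.4, 7.2 and 6.7 and its exposed pools 7.5 and 7.2. Sema4c, a ligand of Plxnb2, had the highest difference in SD, 0.32 (SE 0.221), with room-air values of 8.3, 8.5 and 7.9 against 8.6 and 8.5. The other probe set of Sema4c lay at 0.12.

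Ntng1 was the only guidance gene with all exposed SD pools above all controls (6.67% of all genes). It stood at 6 in each of 3 room-air pools and at 6.1 and 6.3 in hyperoxia, a difference of 0.20 (SE 0.103, adjusted p = 0.815). Ntn1, the founding netrin, differed by -0.08, and Slit1 by 0.20 (SE 0.127).

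Of the 22 receptors, 8 lay below 0 in SD, 12 above and 2 at 0. Unc5b, the netrin receptor of endothelial tip cells, was the lowest: 5, 5 and 5.4 in SD room air and 4.7 and 5 in hyperoxia, a difference of -0.28 (SE 0.14, adjusted p = 0.815). In F344 it stood at 5.1 and 5 in room air and 4.9, 4.8 and 4.8 in hyperoxia, a difference of -0.22, and the groups did not overlap. Endothelial markers lay lower as well: 16 of 17 were below 0 in each strain, with medians of -0.33 in SD and -0.23 in F344. None of the 17 passed in limma, and 9 in SD and 6 in F344 had an unadjusted p under 0.05. The mean log2 value of the 17 lay between 5.44 and 5.73 in SD room air, 5.20 and 5.27 in SD hyperoxia, 5.48 and 5.59 in F344 room air and 5.28 and 5.34 in F344 hyperoxia. Their part in the Unc5b and Efna1 values was not tested. Ephb3 lay at -0.20, Epha5 at 0.13, Plxna2 and Plxnb2 at 0.17 and Robo1 at 0.05 in SD.

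**Figure D2:**
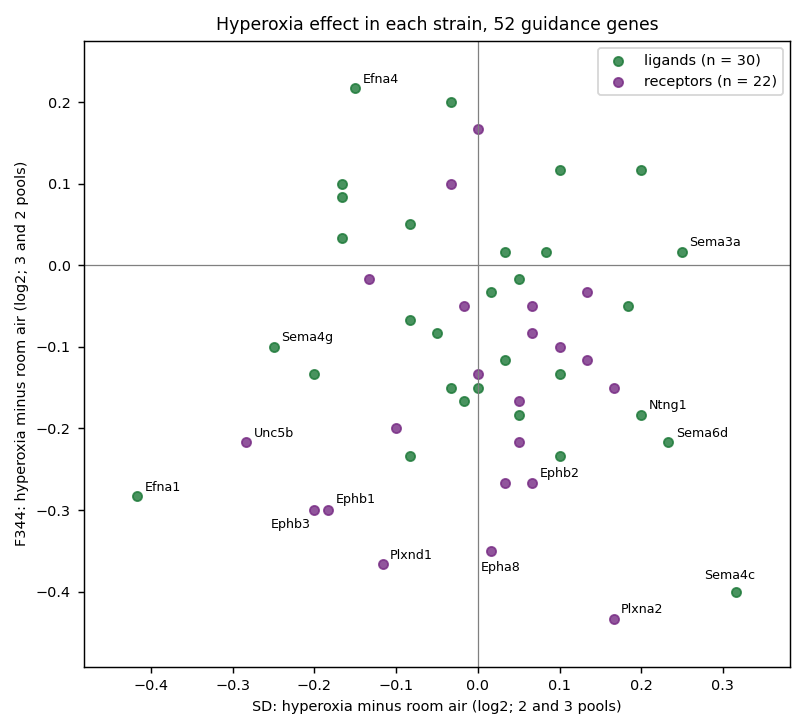
Log2 difference, hyperoxia minus room air, in SD (horizontal) and in F344 (vertical) for the 30 ligands (green) and 22 receptors (purple); each point is 1 gene. In F344, 20 of 22 receptors lie below 0, while in SD 8 do. None of the genes passed in either strain.

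In F344, 3 exposed pools were set against 2 in room air. Receptors lay lower on the whole, but no guidance gene passed, against 0.00698% of all genes (1 gene). Below 0 lay 20 of 22 receptors (median -0.16) and 19 of 30 ligands (median -0.075), against 48.2% of all genes, whose median was 0. All 5 plexins, 4 EphBs, 3 Robos and 3 Unc5s lay below 0. None of the cell type markers passed in the same comparison, but their values leaned: all 16 photoreceptor markers lay above 0 (median 0.275, 6 at an unadjusted p under 0.05), as did 8 of 10 pigment epithelium and choroid markers (median 0.24), while 9 of 12 pericyte and 16 of 17 endothelial markers lay below it. The mean log2 value of the photoreceptor markers lay between 8.70 and 8.71 in F344 room air and between 8.91 and 9.16 in F344 hyperoxia. Their part in the receptor values was not tested. At an unadjusted p under 0.05 there were 4 guidance genes, all lower (Plxnd1, Ephb1, Ephb2 and Plxna2), and 2.19% of all genes were lower at that p. All exposed pools lay below both controls for 11 of the 52 genes (21.2%), where 6.32% of all genes did so: Epha8, Ephb1, Ephb2, Ntng1, Plxna2, Plxnd1, Robo2, Sema3e, Sema5a, Sema6b and Unc5b. They lay above both for Efna4 and Sema3b (6.6% of all genes).

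The exposed pools were uneven. Against the F344 room-air mean, 18 of 22 receptors lay lower in exposed pool 1, 11 in pool 2 and 19 in pool 3, with medians of -0.125, -0.025 and -0.40. Without pool 3, 14 receptors lay below 0 and 5 above, with a median of -0.075, and 41.1% of all genes lay below 0. The 26 known targets of hypoxia-inducible factor were uneven too. In F344, 18 of them lay below 0 and 7 above, with a median of -0.2, and 0 passed. Their mean log2 value was 8.877 and 8.858 in room air and 8.45, 8.962 and 8.565 in exposed pools 1, 2 and 3. Whether these targets and the receptors moved together was not tested.

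Plxnd1, the endothelial receptor of Sema3e, had the smallest p in F344. It stood at 7.3 and 7.5 in room air and 7.2, 7.2 and 6.7 in hyperoxia, a difference of -0.37 (SE 0.153, 95% interval -0.70 to -0.03, adjusted p = 0.921). In SD it stood at 7.3, 7.5 and 7.3 against 7.2 and 7.3, a difference of -0.12. Pool 3 was by far the lowest array for Plxnd1; without single arrays in turn its F344 difference ran from -0.47 to -0.20. Plxna2, a receptor for class 6 semaphorins in the inner retina, behaved alike in F344, with 9.8 and 10 in room air and 9.7, 9.7 and 9 in hyperoxia (difference -0.43, SE 0.195). In SD Plxna2 stood at 9.9, 9.8 and 9.5 in room air and 9.9 in both exposed pools.

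EphB receptors guide ventral retinal axons. Ephb1, known for turning axons to the same side at the chiasm, stood at 7.6 in both F344 room-air pools and 7.2, 7.5 and 7.2 in hyperoxia, a difference of -0.30 (SE 0.127, adjusted p = 0.921). In SD it stood at 7.7, 7.8 and 7.7 against 7.7 and 7.4, a difference of -0.18. Both strains thus had at least 1 exposed pool below all controls. Ephb2 stood at 9.7 in both F344 controls and 9.4, 9.6 and 9.3 in hyperoxia, a difference of -0.27, but differed by 0.07 in SD. Ephb3 lay at -0.30 in F344, where its groups touched at 7. Epha8 lies on chromosome 5 with 3 protein-coding genes between it and Ephb2. Epha8 stood at 8.9 and 9 in F344 room air and 8.7, 8.8 and 8.3 in hyperoxia, a difference of -0.35. In SD its difference was 0.02. Robo2, the chief Slit receptor of ganglion cell axons, stood at 10.1 in both controls and 9.8, 10 and 9.7 in hyperoxia, a difference of -0.27 (SE 0.138). Unc5c, another netrin receptor, lay at -0.22.

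Among F344 ligands, Sema4c lay lowest at -0.40 (SE 0.221), with 8.5 and 8.7 in room air and 8.4, 8.5 and 7.7 in hyperoxia. Pool 3 again was lowest. The other probe set of Sema4c lay at -0.18, with 6.5 and 6.8 in room air and 6.2, 6.5 and 6.7 in hyperoxia. Sema5a, a repellent of retinal neurites, stood at 10.3 in both controls and 10.2, 10.2 and 9.8 in hyperoxia, a difference of -0.23. Efnb2 lay at -0.13, Slit3 at -0.15, Ntn1 at -0.07 and Sema3a at 0.02.

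Averaged over both strains, 0 guidance genes passed (0.0628% of all genes did), and 6 were lower at an unadjusted p under 0.05, where 2.28% of all genes were. The smallest p-values belonged to Efna1 (-0.35), Ephb1 (-0.24), Unc5b (-0.25), Ephb3 (-0.25) and Plxnd1 (-0.24), each with an adjusted p of 0.99. Below 0 lay 34 of 52 genes, with a median of -0.04, against 46% of all genes.

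The exposure effects of the strains were compared by their difference, SD minus F344. Of all named genes 0% passed this test, guidance genes included. At an unadjusted p under 0.05 stood 4 guidance genes, against 6.98% of all genes. Above 0 lay 37 of 52 genes (median 0.12) and 18 of 22 receptors, against 50.6% of all genes. In the same comparison 20 of 24 cell cycle genes lay above 0 (median 0.19) and 13 of 16 photoreceptor markers below it (median -0.275). Of the 26 known targets of hypoxia-inducible factor, 23 lay below 0 and 3 above (median -0.65), and 0 passed. All 8 lens markers lay below 0 as well (median -0.44). The part of these lists was not tested. Ntng1 had the smallest p: with 6.2 and 6.1 in F344 room air and 5.9, 6 and 6 in F344 hyperoxia it lay lower in exposed F344 pools and higher in exposed SD pools, a difference of effects of 0.38 (SE 0.146, adjusted p = 0.651). Sema6d, a ligand of Plxna1, followed with 0.45 (SE 0.182). It stood at 6.1 and 6.4 in F344 room air, 6, 6.1 and 6 in F344 hyperoxia, 5.9, 6 and 5.7 in SD room air and 6.2 and 6 in SD hyperoxia. Sema4c (0.72, SE 0.313), Plxna2 (0.60, SE 0.276) and Efna4 (-0.37, SE 0.166) came next, each with an adjusted p of 0.651. The other probe set of Sema4c had smaller effects, 0.12 in SD and -0.18 in F344. Both pools numbered 3 lie in groups that push the difference of effects up where they are low. Plxna2 and the Sema4c probe set used were low in both pools. Without both of them the median of the 52 genes was 0.05.

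Between the strains, Unc5a was the guidance gene that passed. Unc5a is a netrin receptor of neurons that mediates repulsion. It stood at 7.8 and 7.9 in F344 room air, 7.8, 7.8 and 7.9 in F344 hyperoxia, 8.3, 8.6 and 8.7 in SD room air and 8.3 and 8.5 in SD hyperoxia. All 5 SD pools lay above all 5 F344 pools, whatever the exposure. A single probe set gave these values, and its probe sequences were not checked for differences between the strains. In room air Unc5a was higher in SD by 0.68 (1.61-fold, SE 0.129, adjusted p = 0.037), and in hyperoxia it stood 0.57 higher (SE 0.129, adjusted p = 0.113). The exposure effects of the strains on Unc5a differed by -0.12 (SE 0.182, adjusted p = 0.862). The room-air call was lost in 8 of 10 fits that left out 1 array (adjusted p 0.02 to 0.311) and kept in those without pool 3 of exposed F344 or pool 1 of SD controls. It was also lost without both pools numbered 3 (0.104), and with only the groups compared in the fit (0.36). The strain difference averaged over both exposures, a comparison added after the values were seen, was 0.625 (1.54-fold, SE 0.0911, adjusted p = 0.00347). Unc5a was the only guidance gene to pass there, with 1.49% of all genes. It also passed without both pools 3 and in each fit without 1 pool of a group of 3 (adjusted p 0.00207 to 0.0167). Without 1 pool of a group of 2, its difference ran from 0.575 to 0.675. In the fits without both pools 3 and without SD room-air pool 3, 2 guidance genes passed.

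**Figure D3:**
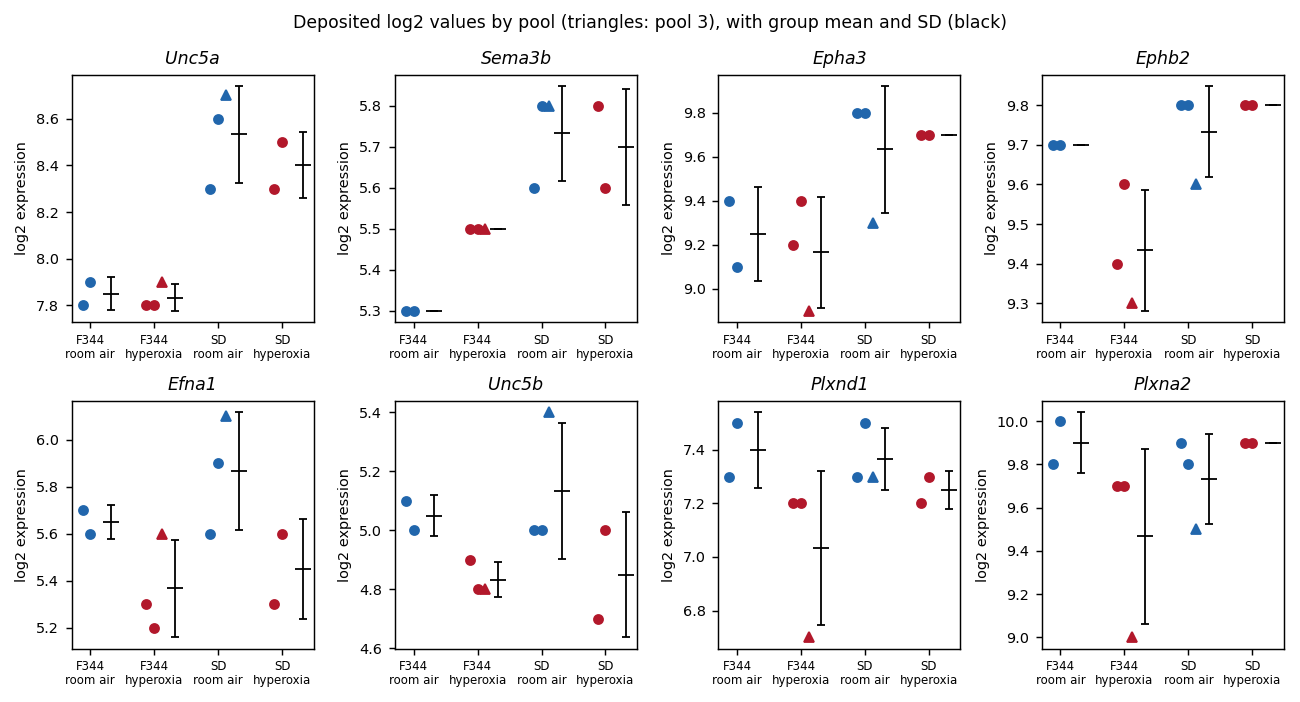
Deposited log2 values of 8 guidance genes in each pool, with room air in blue, hyperoxia in red and pools numbered 3 as triangles; black marks give the group mean and SD, and each panel has its own axis, which does not start at 0. Unc5a and Sema3b separate the strains without overlap, and pool 3 of F344 hyperoxia is the lowest array for Epha3, Ephb2, Plxnd1 and Plxna2.

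On chromosome 17, none of the 5 measured genes on either side of Unc5a passed in room air or in hyperoxia. Sncb, which encodes beta-synuclein, came nearest in room air (0.53, adjusted p = 0.114) but lay at -0.07 in hyperoxia. Fgfr4 lay at 0.22 in room air and 0.45 in hyperoxia.

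Unc5a was 1 of 52 guidance genes to pass in room air, where 0.552% of all genes (79) passed. At an unadjusted p under 0.05 there were 4, against 11.4% of all genes. SD pools lay wholly above F344 pools in room air for Ephb1, Sema3b and Unc5a (10.8% of all genes) and wholly below for Ntng1, Sema3c, Sema5a, Sema6d and Unc5c (9.93%). Both shares of the 52 genes were below or near the background. Signs were even among all 52, with 26 below 0 and 23 above. In the same comparison 15 of 16 photoreceptor markers lay above 0 (median 0.2), and 1 passed in limma, Opn1sw (0.77, adjusted p = 0.00656). Of 12 microglial markers 8 lay above 0 and 1 passed as higher. Above 0 also lay 8 of 9 fibroblast and sclera markers (median 0.27) and 11 of 16 progenitor and Mueller glia markers (median 0.1). Of 24 cell cycle genes 15 lay below 0 (median -0.07). Their part in the Unc5a values was not tested.

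Sema3b, a class 3 semaphorin that acts through neuropilins, stood at 5.3 in both F344 room-air pools, 5.5 in all 3 exposed F344 pools, 5.6, 5.8 and 5.8 in SD room air and 5.8 and 5.6 in SD hyperoxia. Its SD pools lay above its F344 pools within each exposure, as did those of Unc5a, and 1.92% of all genes did so. Its room-air difference was 0.43 (SE 0.108, adjusted p = 0.133), and in hyperoxia it was 0.20. Sema6d stood in SD at -0.38 against F344 in room air (SE 0.129, adjusted p = 0.283), and Sema3c, also a class 3 ligand, at -0.28 (SE 0.117, adjusted p = 0.391). In hyperoxia these 2 stood at 0.07 and -0.05. Epha3, an ephrin-A receptor, stood at 9.4 and 9.1 in F344 room air, 9.2, 9.4 and 8.9 in F344 hyperoxia, 9.8, 9.8 and 9.3 in SD room air and 9.7 in both exposed SD pools. Its room-air difference was 0.38 (SE 0.178, adjusted p = 0.44). The SD pool at 9.3, which overlapped F344, was pool 3. Robo3 lay at 0.42 in room air and 0.45 in hyperoxia without passing. With a term for the pools numbered 3 in the fit, the room-air difference of Epha3 was 0.53 and Epha3 passed (adjusted p = 0.0406).

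In hyperoxia, 0 guidance genes passed (0.475% of all genes did). At an unadjusted p under 0.05 there were 9, all higher in SD, and 3.49% of all genes were higher at that p. SD pools lay wholly above F344 pools for 13 of the 52 (25%), with 8.04% of all genes: Efnb2, Epha10, Epha2, Epha3, Epha5, Epha8, Ephb2, Ntng1, Plxna2, Robo1, Robo2, Sema3b and Unc5a. They lay wholly below for Efna4, Epha1 and Sema3d (7.34%). Of the 22 receptors 20 lay above 0 (median 0.23), and of the 30 ligands 15 did, where 48.5% of all genes lay above 0. In the same comparison 21 of 24 cell cycle genes lay above 0 (median 0.125), as did 11 of 16 progenitor and Mueller glia markers (median 0.15). Below 0 lay 13 of 16 ganglion cell markers (median -0.125). Of the 26 known targets of hypoxia-inducible factor, 22 lay below 0 and 3 above (median -0.48), and 2 passed as lower. The part of these lists in the receptor values was not tested. Both hyperoxia comparisons in F344 and between strains share the 3 exposed F344 pools. Without pool 3 of them, 16 receptors lay above 0 and 3 below, with a median of 0.175.

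Ephb2 stood at 9.8 in both exposed SD pools and 9.4, 9.6 and 9.3 in exposed F344 pools, a difference of 0.37 (SE 0.116, adjusted p = 0.407). Epha5, an ephrin-A receptor of the axon map, stood at 10.1 in both exposed SD pools and 9.7, 9.9 and 9.7 in exposed F344 pools (0.33, SE 0.116, adjusted p = 0.512). Epha3 lay 0.53 higher (SE 0.178, adjusted p = 0.464). Epha2, the receptor of ephrin-A1, stood at 7.5 and 7.7 against 7.2, 7.4 and 7 (0.40, SE 0.158, adjusted p = 0.647). Robo1, a Slit receptor, stood at 8.5 and 8.6 against 8.2, 8.4 and 8.1. Each of these 5 receptors had its lowest or joint lowest exposed F344 value in pool 3.

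**Figure D4:**
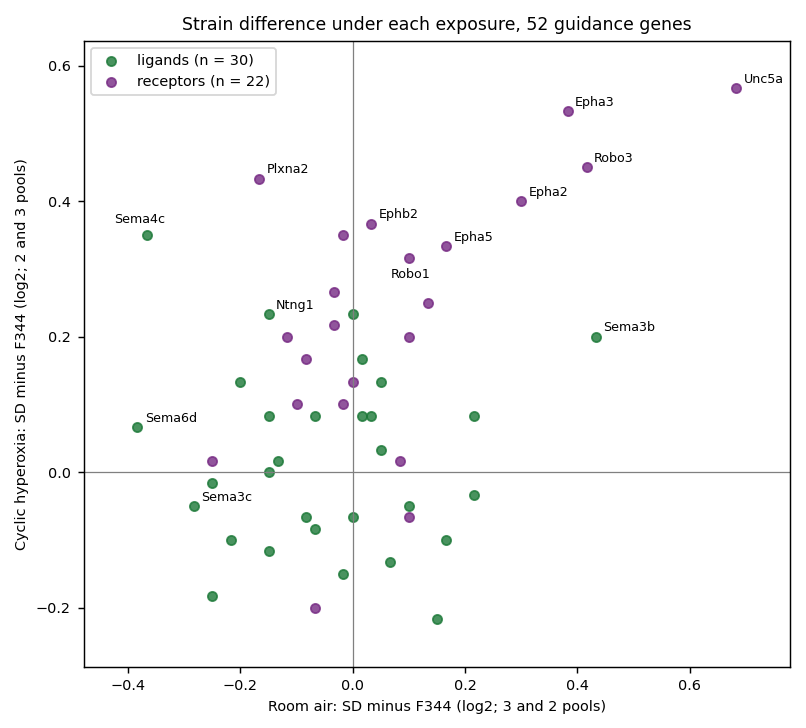
Log2 difference, SD minus F344, in room air (horizontal) and in cyclic hyperoxia (vertical) for the 30 ligands (green) and 22 receptors (purple). Unc5a lies farthest up and right, at 0.68 and 0.57, and 20 of 22 receptors lie above 0 on the vertical axis.

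The pools numbered 3 were then compared with the other pools of their groups, a comparison added after the values were seen. Of the 52 genes, 12 passed as lower in the pools numbered 3 (8.73% of all genes) and 0 as higher (7.39% of all genes). Leaving out each of the other 8 arrays in turn, 5 to 12 passed as lower and 0 to 1 as higher, while 732 to 1179 of all genes passed as lower and 741 to 941 as higher. There were 5 without F344 hyperoxia pool 2, and 6 lower and 1 higher without SD room-air pool 2. Pool 3 lay below both other pools in both groups for 19 of the 52 genes and above both for 6, against 17.9% and 16.6% of all genes.

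The 12 were 9 receptors and 3 semaphorins: the plexins Plxna2 (-0.525, SE 0.103, adjusted p = 0.00506), Plxna3 (-0.375) and Plxnb2 (-0.325), the Eph receptors Epha3 (-0.45), Epha8 (-0.40) and Ephb6 (-0.35), Robo3 (-0.50), Robo2 (-0.30) and Unc5c (-0.40), and the semaphorins Sema4c (-0.625, SE 0.104, adjusted p = 0.00201), Sema3a (-0.425) and Sema5a (-0.35). Ephb6 lacks kinase activity, and Robo3 is known from midline crossing of axons. Robo3 stood at 7.7 and 8 in SD room-air pools 1 and 2 and 7.3 in pool 3, and at 7.2 and 7.5 in the exposed F344 pools 1 and 2 and 6.9 in pool 3. In Sema4c the second probe set moved the other way, by 0.45, so the gene as a whole has no settled direction. Efna1 (0.35, adjusted p = 0.0531) and Efna5 (0.325, adjusted p = 0.0689) lay higher without passing.

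Other genes moved with the same pools. Of 24 cell cycle genes 23 lay below 0, with a median of -0.44, and 16 passed as lower; their mean log2 value was 8.71 in F344 hyperoxia pool 3 and 8.61 in SD room-air pool 3, below the other 8 arrays (8.93 to 9.09). Of 9 fibroblast and sclera markers 8 lay above 0, with a median of 0.525, and 4 passed as higher; their mean was 6.28 in SD room-air pool 3 but 5.56 in F344 hyperoxia pool 3, where pools 1 and 2 had 5.44 and 5.53. Of 16 photoreceptor markers 4 passed as higher and 0 as lower, of 16 ganglion cell markers 4 and 1, of 10 pigment epithelium and choroid markers 4 and 1, and of 16 progenitor and Mueller glia markers 2 and 4. Their part in the guidance genes was not tested.

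**Figure D5:**
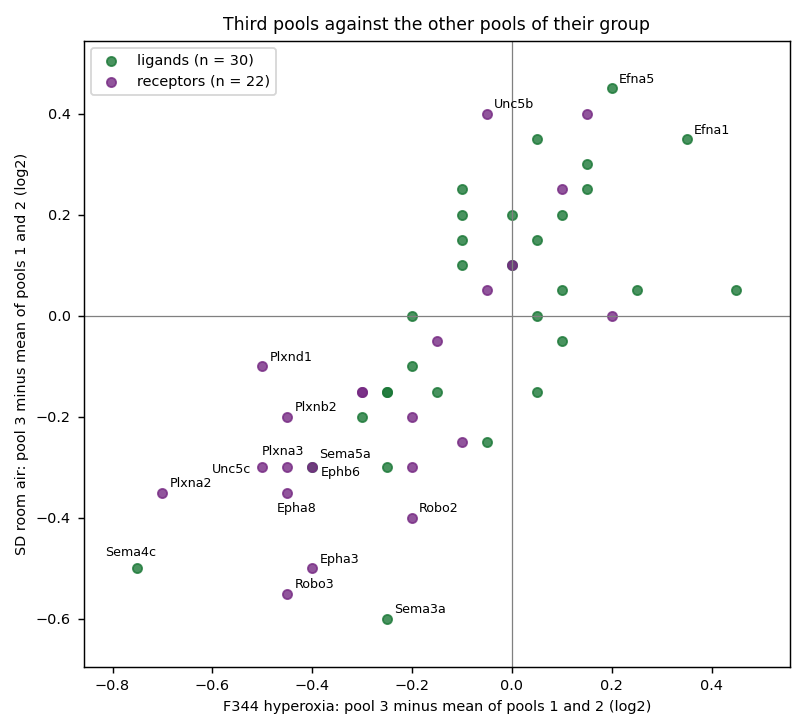
Log2 value of pool 3 minus the mean of pools 1 and 2 in F344 hyperoxia (horizontal) and in SD room air (vertical) for the 30 ligands (green) and 22 receptors (purple). The 12 genes that passed as lower lie in the lower left, with Sema4c and Plxna2 farthest left.

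The rest of the guidance pathway gave few differences. Of the co-receptors and other cues 32 of 36 listed genes were measured, of the signalling genes 44 of 52, and of the genes that set retinal position 16 of 19. None of these 91 genes beyond the 52 passed limma's test in the 6 comparisons of strain and exposure, and 20 (22%) had an unadjusted p under 0.05 in at least 1 of them, as did 22.3% of all named genes. Cspg4, a proteoglycan of pericytes and glial precursors, lay at -0.25 in each strain with hyperoxia (SE 0.103; adjusted p = 0.843 averaged). Dcc, the attractive netrin receptor, stood at 8.9 and 8.7 in F344 room air and 8.5, 8.4 and 8.2 in SD room air, a difference of -0.43 (SE 0.139, adjusted p = 0.257). Nrp1, a neuropilin that binds Sema3a, lay at -0.38 in the same comparison (SE 0.144, adjusted p = 0.341). Pdlim7, an adaptor at actin filaments, lay at -0.60 between strains in hyperoxia (adjusted p = 0.157).

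In the pools numbered 3, 6 of the 32 co-receptors and cues passed, 2 higher (6.25%, with 7.39% of all genes) and 4 lower (12.5%, with 8.73% of all genes). Omg, a myelin inhibitor, was higher by 0.90 and Rtn4rl2, a Nogo receptor relative, by 0.55, while Itgb1, Nrp1 (-0.325, SE 0.0946, adjusted p = 0.0355), Cd72 and Nrcam were lower. Of the 44 signalling genes 2 were higher, the small GTPases Cdc42 and Rhoa, and 9 lower (20.5%). Dpysl2, which carries semaphorin signals to microtubules, was lower, at -0.60 (SE 0.0923, adjusted p = 0.00123), and Ptk2, focal adhesion kinase, at -0.40.

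Of the 24 guidance genes known from vessels or the retinal axon map that were listed for description, 19 were measured. Ephb4, Slit2, Ntn4, Sema6a and Plxna4 had no probe set with a single gene name and were not analysed here.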

How the data were processed

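Retinal RNA pools were hybridised to Affymetrix rat gene arrays. The submitters' processing notes name RMA and Partek 6.4, with no role or order; background correction and normalization are not otherwise described. The values are the authors' deposited log2 values to 1 decimal. Arrays hold no depth, and their number limits the precision. Probe sets were named by the platform annotation: 15097 had 1 symbol, 323 several and 11922 none. limma 3.58.1 in R 4.3.3 fitted 4 group means to all 10 arrays (6 residual degrees of freedom, eBayes defaults, 2-sided), with Benjamini-Hochberg adjustment over 27342 probe sets and 95% intervals from the moderated fit. The script was tested on simulated data. No 2 arrays shared more than 25.9% of values. Replicate numbers were checked for pairing: of 13 same-number pairs 4 correlated over 0.1 (-0.0733 to 0.643). These included all 3 between F344 hyperoxia and SD room air (0.314, 0.397 and 0.643), groups not compared directly. The averages over strains or over exposures give both groups opposite signs, and the difference of effects gives them the same sign. The main fits treat their arrays as independent. No compared pair of groups met the rule that every pair does, so no pairing was used.

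Members, lists and tests were chosen with earlier results of these data known. Named genes were those that passed, the 5 with smallest p per comparison, the largest exposure difference per family and strain, and 24 listed genes; of the other lists, pathway genes are named and marker lists counted. The gene table (GRCr8) gave names and order.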

Additional observations from a re-analysis of the deposited data

How the results depend on the processing

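With groups of 2 or 3 pools, only large differences could pass. For 42 results (30 of them single genes), 865 of 904 alternative values stayed on the same side of the threshold or, for counts and medians, within 1.5 times or 1 SD of the value reported, and no single gene changed direction. All the single-gene results but Unc5a in room air had not passed, so their staying on that side was likely beforehand and says little. Unc5a in room air stayed on its side in 12 of 22 alternatives. The medians nearest 0 did change sign: over the alternatives the median exposure difference in SD ran from -0.02 to 0.06 and the median strain difference in room air from -0.07 to 0.03. The guidance genes passing in the room-air strain comparison (1, Unc5a) numbered 0 with only the groups compared and without both arrays numbered 3, and 2 with the replicate block (Unc5a, and Robo3 at 0.58, adjusted p = 0.0176) or with a term for the arrays numbered 3 (Unc5a and Epha3). In the hyperoxia strain comparison 0 became 1, Unc5a, with array weights (0.58), with the replicate block (0.625, adjusted p = 0.0193) and with the term for arrays 3 (0.625). The median difference of exposure effects was 0.05 with the replicate block, with that term and without both arrays 3; the F344 median was -0.05 without both arrays 3. Leaving out 1 array at a time gave 0 to 1 genes in the room-air comparison, 0.05 to 0.18 for the median difference of effects and -0.15 to -0.05 for the F344 median. Among these results the block changed no other call. The replicate numbers do not pair the groups that were compared directly. The causes were not tested beyond the fewer arrays or genes each setting keeps. Only 40 of 52 genes lie among the probe sets at or above the median brightness, so the others have no value there. The difference and the average of the effects use all 4 groups, so limiting the fit to the groups compared gives no separate value. Without an F344 room-air array that group has 1 array, assumed to vary like the others.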
